A study of Mus musculus with 32 samples.

Results

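The genes described here are the nuclear-encoded subunits of the mitochondrial respiratory chain and ATP synthase. Members were all gene symbols beginning with Nduf, Uqcr, Cox4, Cox5, Cox6, Cox7, Cox8 or Atp5, together with Sdha, Sdhb, Sdhc, Sdhd and Cycs, leaving out symbols with -ps or beginning with Gm. Of 107 matching symbols 9 were left out in this way, which gave 98 members of 55341 gene symbols. The annotation lists 4 of the 98 (Cox6c2, Ndufa11b, Ndufb4c and Ndufs6b) as processed pseudogenes, and they stay in the counts below although none had a count. They comprised 39 genes of complex I, 4 of complex II, 8 of complex III, 21 of complex IV and 16 of ATP synthase (complex V), the coupling factor gene Atp5s, cytochrome c (Cycs) and 8 complex I assembly factors. Of the 98, 93 had at least 1 UMI (unique molecular identifier, 1 counted transcript), and Cox6c2, Cox8c, Ndufa11b, Ndufb4c and Ndufs6b had none. The members held 119941 of 10017205 UMIs, or 1.20%.

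Complexes I and II pass electrons from NADH and succinate to ubiquinone, complex III passes them on to cytochrome c, and complex IV (cytochrome c oxidase) reduces oxygen. Proton pumping by complexes I, III and IV drives ATP synthase. Most subunits are encoded in the nucleus and imported, while a small core is made inside the organelle from mitochondrial DNA, and in the brain astrocytes, microglia and vascular cells differ in how far they rely on oxidative metabolism or glycolysis.

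Single-cell RNA-seq libraries were prepared from 16 female mice aged 15 months, 1 library each from cortex and hippocampus, after microglia were pulled down with CD11b beads and astrocytes with ACSA-2 beads. The groups were WT-vehicle (5 mice), WT-PMX205 (3), Tg2576-vehicle (4) and Tg2576-PMX205 (4); PMX205, a C5aR1 antagonist, was given in the drinking water for 12 weeks (2 to 8 mg/kg/day), and vehicle mice drank water. Tg2576 mice carry a mutant human APP transgene under the prion promoter, and WT mice were littermates, but the labels give their genotype as APP and their strain as the Arctic mouse model of AD. The strain labels also add a constitutive C5ar1 knockout in 5 mice and C5a overexpression under the GFAP promoter in 5, and in WT-vehicle replicate 4 and Tg2576-vehicle replicate 3 strain and genotype labels disagree.

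The 32 libraries held 37205 to 1072049 UMIs. After filtering, 5965 cells remained, and 358 likely doublets were removed. Cells were assigned by marker genes that include no member, which gave 2130 microglia, 1042 astrocytes, 146 mural cells, 97 endothelial cells and 29 perivascular macrophages, while 2152 cells stayed without a type. All 10 microglial and all 10 astrocyte markers were detected in their own type, but the same markers typed the cells, so this is no check of purity. In all, 289 barcode sequences occurred in several libraries (684 of the cells past the filters), and in 4 mice (WT-vehicle replicate 5, Tg2576-vehicle replicate 4, Tg2576-PMX205 replicates 2 and 3) 23.5 to 62.1% of the other barcodes had a partner in the same library differing in the first base alone. Levels are given as CPM, in which the UMIs of a gene are scaled to all UMIs of the same cells of 1 mouse.

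RefSeq promoter windows (GRCm38.p6, 250 bases before to 50 after a start site) were found for 77 of the 98 members. The NRF1 motif, GCGCA and GCGC with any 1 base between them, was searched on both strands, as were the others. It occurred in 19 of the 77 genes (24.7%) and in 5.19% of 27025 genes. The ETS motif CCGGAAG occurred in 18 members (23.4%) against 9.93% of all genes, and the YY1 motif AAGATGG in 12 (15.6%) against 7.28%. The short HIF core ACGTG occurred in 20 members (26%) and in 21.8% of all genes. ETS and YY1 matches shared bases in 5 of 32851 windows, none of them of a member. NRF1 matches shared none with either, and overlaps with the HIF core were not counted. A match is a string of letters and not a measured binding site.

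The windows of 4 genes are printed, those on which the comparison of astrocytes with microglia turned. Atp5g3, Uqcrfs1 and Ndufa11 had among the 5 largest increases in astrocytes of the members tested, and Cox7a2l was the only member that passed the test in the opposite direction. They lie at chr2:73911277-73911576, minus strand (Atp5g3), chr13:30545267-30545566, minus strand (Uqcrfs1), chr17:56717512-56717811, plus strand (Ndufa11) and chr17:83514284-83514583, minus strand (Cox7a2l). Capitals mark matches to the NRF1, ETS or YY1 motif; Atp5g3 and Ndufa11 each held 1 NRF1 match, and none of these 3 was found in the Uqcrfs1 and Cox7a2l windows.
Atp5g3: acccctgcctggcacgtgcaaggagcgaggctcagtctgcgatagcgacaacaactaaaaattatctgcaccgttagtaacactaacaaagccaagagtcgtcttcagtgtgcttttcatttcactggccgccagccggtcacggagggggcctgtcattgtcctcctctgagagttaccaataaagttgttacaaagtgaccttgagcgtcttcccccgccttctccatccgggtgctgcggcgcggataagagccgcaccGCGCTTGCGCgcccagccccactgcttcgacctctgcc
Uqcrfs1: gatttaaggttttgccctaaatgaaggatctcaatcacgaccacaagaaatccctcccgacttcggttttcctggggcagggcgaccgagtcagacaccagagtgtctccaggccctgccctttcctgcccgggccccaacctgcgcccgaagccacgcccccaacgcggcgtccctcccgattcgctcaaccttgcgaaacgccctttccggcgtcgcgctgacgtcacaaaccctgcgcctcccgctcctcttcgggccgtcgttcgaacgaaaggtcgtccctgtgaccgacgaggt
Ndufa11: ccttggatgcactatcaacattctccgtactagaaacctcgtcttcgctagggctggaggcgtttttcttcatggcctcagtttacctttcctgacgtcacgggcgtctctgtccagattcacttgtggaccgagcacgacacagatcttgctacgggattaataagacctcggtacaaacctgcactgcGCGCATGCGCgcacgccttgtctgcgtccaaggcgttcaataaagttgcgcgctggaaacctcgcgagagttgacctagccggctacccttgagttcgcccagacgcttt
Cox7a2l: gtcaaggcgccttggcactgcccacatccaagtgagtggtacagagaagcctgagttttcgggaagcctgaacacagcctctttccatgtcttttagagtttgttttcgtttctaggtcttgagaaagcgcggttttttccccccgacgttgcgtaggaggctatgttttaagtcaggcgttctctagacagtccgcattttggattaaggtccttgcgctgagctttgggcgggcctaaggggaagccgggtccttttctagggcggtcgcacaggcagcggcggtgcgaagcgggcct

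Astrocytes held about double the share of member transcripts that microglia of the same mice held. In the 12 mice with at least 20 cells of both types, the summed level of the 98 members was 14027 to 21152 CPM in astrocytes (median 17132) and 7115 to 9242 CPM in microglia (median 8222). The 2 types did not overlap, and astrocytes were higher in 12 of 12 mice, by 1.52-fold to 2.97-fold (median 2.07-fold; mean log2 difference 1.03, SD 0.24, n = 12). A sum over chosen genes was given no test. The sums rested on 38069 to 268890 UMIs a mouse in astrocytes and 55239 to 464778 in microglia. Because the level is a share of all transcripts, more transcript per cell and fewer other transcripts cannot be told apart.

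**Figure D1:**
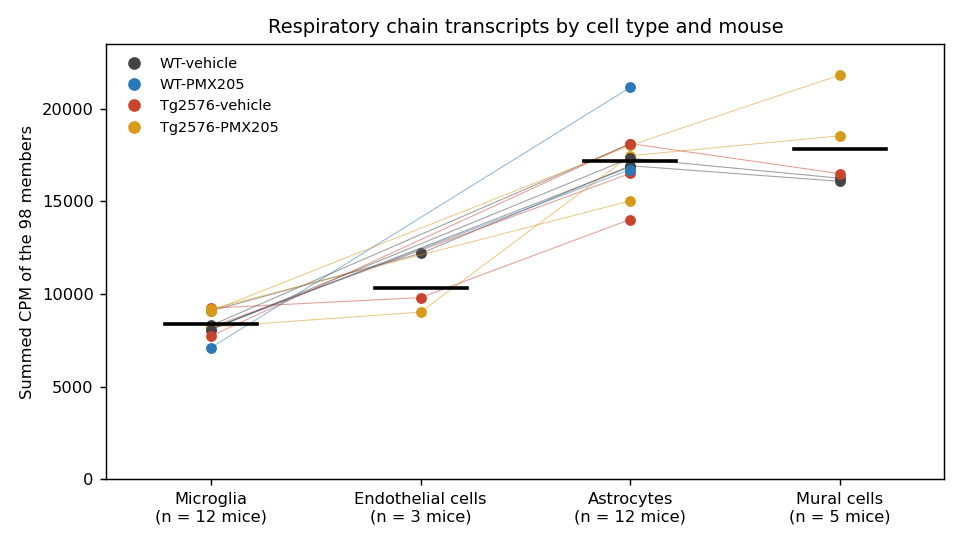
Summed CPM of the 98 members (y axis) for each mouse (points, coloured by group) in 4 cell types (x axis), with thin lines joining types of 1 mouse and thick bars at the mean. All 12 astrocyte points lie above all 12 microglia points, the 5 mural points lie between 16088 and 21818, and the 3 endothelial points lie between 9029 and 12196.

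Gene by gene the same direction was found in nearly all members that had enough UMIs. Of 51 members tested, 48 were higher in astrocytes and 1 was lower (edgeR's quasi-likelihood test with mouse as block, Benjamini-Hochberg adjusted p under 0.05). Of all 2272 genes tested, 35.4% were higher and 34.6% were lower. The median log2 fold change was 1.37 for the members tested and 0.04 for all genes tested. Low-count members could pass the filter through the type in which they are high, so this count is a description; without the filter 52 of 93 members were higher and 1 lower. Scaling by library totals alone shifted the median of all genes to -0.13 and left 45 higher and 1 lower, and DESeq2 gave 48 and 1. Of the 37 tested members with at least 90% unique sequence near the 3' end, 34 were higher and 1 lower.

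In ATP synthase all 10 subunits tested were higher in astrocytes, and the summed level was higher in 12 of 12 mice (median 2.34-fold). Atp5g3, which encodes the c-ring subunit that rotates with proton flow, had the largest change of all members tested. Its level was 88.8 to 278 CPM in microglia (median 165) and 535 to 1181 CPM in astrocytes (median 789), without overlap, a log2 fold change of 2.53 (SE 0.18, adjusted p = 2.27e-15). The paralogs Atp5g1 and Atp5g2, which encode the same mature protein, did not pass the filter on low counts. Atp5g1 had 77 UMIs in all astrocytes and 71 in all microglia, and Atp5g2 had 38 and 74. Of their 3' sequence 47.9% and 50.4% was unique, against 100% for Atp5g3, so their counts cannot be set against its counts. Atp5b, the catalytic beta subunit, was at 279 to 456 CPM in microglia (median 335) and 556 to 1132 CPM in astrocytes (median 935; log2 fold change 1.60, SE 0.17, edgeR adjusted p = 7.56e-11). Atp5a1, the alpha subunit, was at 195 to 595 CPM and 642 to 1219 CPM (medians 434 and 806; log2 fold change 1.24, SE 0.17, edgeR adjusted p = 2.10e-08), also without overlap.

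All 7 complex III subunits tested were higher in astrocytes, with a median ratio of the summed level of 2.70, the highest among the 5 complexes. Uqcrfs1, the Rieske iron-sulfur protein, rose from a range of 20.7 to 157 CPM in microglia (median 96.3) to 165 to 623 CPM in astrocytes (median 389), with no overlap (log2 fold change 2.20, SE 0.20, edgeR adjusted p = 2.34e-12). Uqcrh, the hinge protein next to cytochrome c1, had medians of 152 and 289 CPM and overlapping ranges (log2 fold change 1.21, SE 0.19, edgeR adjusted p = 4.11e-07).

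For complex I, 18 of 19 tested members were higher (median ratio of the summed level 2.17). Ndufb10, an accessory subunit, was at 10.4 to 143 CPM in microglia (median 112) and 185 to 540 CPM in astrocytes (median 338), with no overlap (log2 fold change 2.06, SE 0.23, edgeR adjusted p = 2.55e-10). Ndufa11, an accessory membrane subunit, had medians of 56.8 and 184 CPM and was higher in 11 of 12 mice (log2 fold change 2.02, SE 0.30, edgeR adjusted p = 1.29e-07); of its 3' sequence 89.5% was unique, the rest being shared with Ndufa11b. Ndufc2 had medians of 113 and 337 CPM and was higher in 12 of 12 mice. Ndufa9 was the exception, with medians of 112 CPM in microglia and 69.1 CPM in astrocytes (log2 fold change -0.25, SE 0.27, edgeR adjusted p = 0.429). None of the 8 assembly factors passed the filter; their summed level was 184 to 383 CPM in astrocytes and 140 to 270 CPM in microglia.

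Complex II, which also belongs to the citrate cycle, had the smallest ratio (median 1.54), with 3 of 4 subunits higher. Sdha, the flavoprotein, had medians of 185 CPM in microglia and 278 CPM in astrocytes (log2 fold change 0.67, SE 0.19, edgeR adjusted p = 0.00216; not passed in 3 of 27 alternatives), and Sdhc, a membrane anchor, 144 and 264 CPM (log2 fold change 0.93, SE 0.22). Sdhd, the other anchor, had medians of 152 and 168 CPM and did not pass (adjusted p = 0.103 by edgeR).

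Complex IV held the only member that passed the test as lower in astrocytes. Cox7a2l encodes a protein of the COX7A family that joins complexes III and IV into supercomplexes. Its level was 321 to 705 CPM in microglia (median 562) and 17.4 to 289 CPM in astrocytes (median 146). The ranges did not overlap, and it was lower in astrocytes in 12 of 12 mice (log2 fold change -1.65, SE 0.22, edgeR adjusted p = 1.46e-08). Its paralog Cox7a2 moved the other way, with medians of 62.3 CPM in microglia and 152 CPM in astrocytes (log2 fold change 1.48, SE 0.26, edgeR adjusted p = 3.54e-06). In all 27 alternatives Cox7a2l stayed lower and past the threshold, with log2 fold changes of -2.13 to -1.46.

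The other 10 complex IV members tested were higher in astrocytes. Cox5a, a structural subunit, had medians of 67.9 and 249 CPM (log2 fold change 2.07, SE 0.28), and Ndufa4, now counted as a complex IV subunit, 87.2 and 256.1 CPM without overlap (log2 fold change 1.92, SE 0.24). Cox6b1, on the intermembrane side of the enzyme, and Cox6a1, a membrane-spanning subunit, had log2 fold changes of 1.42 (SE 0.17) and 1.02 (SE 0.17). Cox8a, a small membrane subunit, had medians of 208 and 423 CPM and was higher in 11 of 12 mice. Cox4i1, a regulatory subunit, had close medians of 195 and 220 CPM and a small log2 fold change of 0.66 (SE 0.21, edgeR adjusted p = 0.0044), which did not pass in 3 of 26 alternatives.

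**Figure D2:**
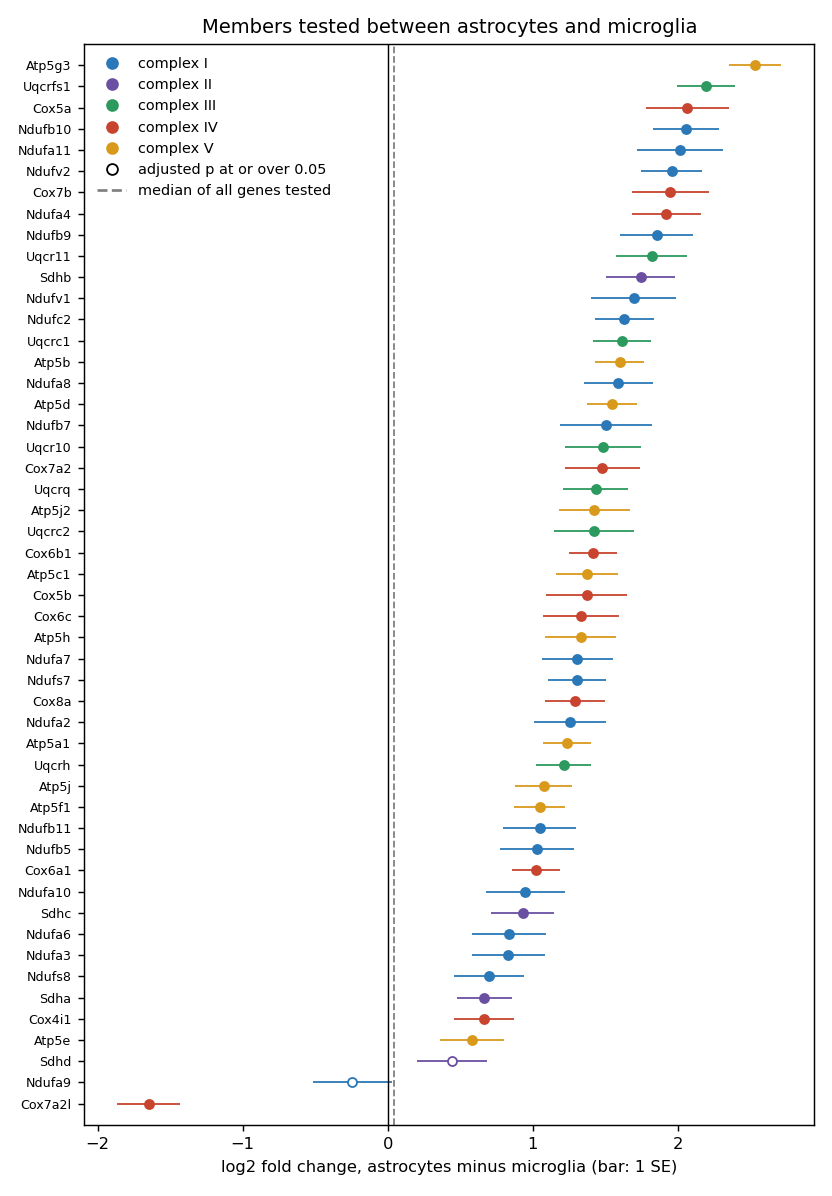
The log2 fold change of 50 of the 51 members tested (x axis, astrocytes minus microglia, bars of 1 SE), ordered by size and coloured by complex, with open points where the adjusted p was at or over 0.05 and a dashed line at the median of all genes tested. Atp5g3 lies at the top with 2.53, and Cox7a2l lies alone at the bottom with -1.65.

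Subunits made from mitochondrial DNA did not follow the nuclear ones. Of 9 mitochondrially encoded subunits tested, none was higher and 1 was lower in astrocytes, with 1 at an unadjusted p under 0.05.  The summed mitochondrially encoded level was 0.58-fold to 1.19-fold that of microglia (median 0.90-fold, higher in 4 of 12 mice). The cells had been limited to 5% mitochondrial UMIs, which bears on this sum. Cytosolic ribosomal protein genes went the other way: all 37 tested were lower in astrocytes, with a summed ratio of 0.19 to 0.37. Citrate cycle and pyruvate dehydrogenase genes were higher for 8 of 11 tested and lower for none, carriers and channels for 6 of 7, and glycolysis genes for 8 of 11 with 1 lower.

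**Figure D3:**
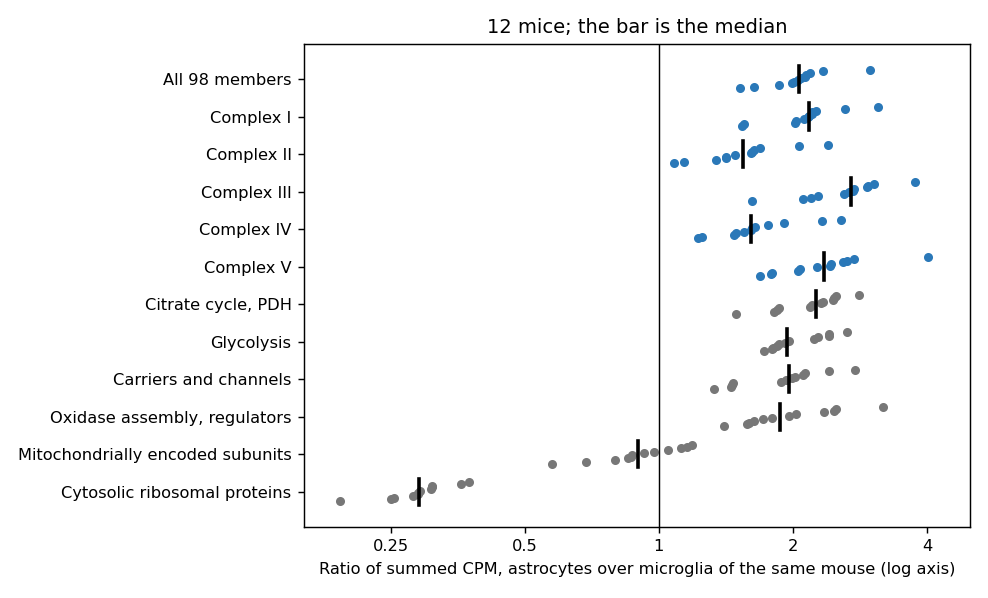
Ratio of the summed CPM in astrocytes over microglia of the same mouse (x axis, log scale; 1 point a mouse, 12 mice; bar, median) for the members, each complex and 6 other gene lists (y axis). Every complex lies above 1 in all 12 mice, mitochondrially encoded subunits straddle 1 and ribosomal proteins lie between 0.19 and 0.37.

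Transcripts of the other cell type were present in both types. Microglial markers summed to 979 to 4255 CPM in astrocytes (9 of 10 detected, P2ry12 at 0), against 34822 to 45138 CPM in microglia. Astrocyte markers summed to 682 to 2381 CPM in microglia, against 37327 to 45254 CPM in astrocytes. Their part in the differences was not tested.

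Mural cells (pericytes and smooth muscle of vessels) held member transcripts at levels overlapping those of astrocytes, and carried in addition the isoforms Ndufa4l2 and Cox4i2. In the 5 mice with at least 10 mural cells (WT-vehicle replicates 1 and 4, Tg2576-vehicle replicate 3, Tg2576-PMX205 replicates 2 and 3), the summed level was 16088 to 21818 CPM, 1.77-fold to 2.40-fold that of microglia in 5 of 5 mice and 0.91-fold to 1.21-fold that of astrocytes (higher in 2 of 5). Against the mean of astrocytes and microglia, 9 of 71 members tested were higher and 1 was lower (edgeR adjusted p under 0.05), where 9.19% of 4416 genes were higher and 18.8% lower. The median log2 fold change was 0.02 for members and -0.42 for all genes tested; with library totals alone the median of all genes was 0.08, and 16 members were higher and 0 lower, with all genes going from 406 higher and 830 lower to 642 higher and 461 lower. The excess of higher calls was lost in other settings: without Tg2576-PMX205 replicate 2, without Tg2576-PMX205 replicate 3, and with no filter on low counts, 2 members were higher and 2 lower in each case, and without both of these mice 1 was higher and 3 were lower.

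Ndufa4l2, a paralog of Ndufa4 known as a pericyte gene, had 61 UMIs in mural cells, 1 in microglia and 0 in astrocytes, endothelial cells and perivascular macrophages. Like Cox4i2 below, it passed the filter on low counts only through mural cells, so its call (edgeR adjusted p = 1.51e-26) is a description, and its fitted fold change is not given. It was at 112 and 449 CPM in the mural cells of WT-vehicle replicates 1 and 4 (1 and 8 UMIs), 384 CPM in Tg2576-vehicle replicate 3 (5 UMIs), and 502 and 592 CPM in Tg2576-PMX205 replicates 2 and 3 (28 and 15 UMIs). The astrocytes of these mice had 0 UMIs and their microglia 1 UMI, so the types did not overlap. Over all cells, 40 of 146 mural cells had a UMI (27.4%, 95% Wilson interval 20.8 to 35.1%), against 1 of 2130 microglia and 0 of 1042 astrocytes, which allows a share of up to 0.288% of astrocytes with a UMI. That limit does not bear on cells that express the gene below detection, and it pools cells of several mice. The median cell held 908.5 UMIs in mural cells, 935.5 in microglia and 1121.5 in astrocytes, and with each cell thinned to 500 UMIs the mural share was 17.8%. The pooled level was at least 188-fold higher than in astrocytes and at least 16.4-fold higher than in endothelial cells (floor of 3 UMIs over the group), and 1034-fold that of microglia (exact interval 179 to 41515 around a single UMI). Intervals and floors cover counting error only, and each barcode was counted as a cell; whether the paired barcodes of Tg2576-PMX205 replicates 2 and 3 are separate cells was not tested. Ndufa4l2 (chr10:127514967-127517154, plus strand) overlaps Shmt2 on the other strand. Shmt2 had 2 UMIs in mural cells, 61 in microglia and 41 in astrocytes.

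Cox4i2, the alternative isoform of subunit 4 known from lung and vascular cells, showed the same distribution. It was at 223 and 224 CPM in WT-vehicle replicates 1 and 4 (2 and 4 UMIs), 384 CPM in Tg2576-vehicle replicate 3 (5 UMIs), and 251 and 237 CPM in Tg2576-PMX205 replicates 2 and 3 (14 and 6 UMIs). Microglia of these mice had 0 UMIs and astrocytes 2, without overlap (edgeR adjusted p = 3.46e-17, with the same limit). Of 146 mural cells 29 had a UMI (19.9%, Wilson interval 14.2 to 27.1%). The pooled level was 80.9-fold that of astrocytes (exact interval 28.9 to 313) and at least 9.43-fold higher than in endothelial cells. Its counterpart Cox4i1 stayed present in mural cells at 76.8 to 559 CPM, overlapping both other types (log2 fold change -0.39, SE 0.41, edgeR adjusted p = 0.517).

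The common form Ndufa4 was the only member that passed the test as lower in mural cells. It had 0 UMIs in 3 of 5 mice, 3 UMIs in Tg2576-vehicle replicate 3 (230 CPM) and 2 in Tg2576-PMX205 replicate 3 (78.9 CPM), against 200 to 273 CPM in astrocytes and 24.2 to 120 CPM in microglia (log2 fold change -2.04, SE 0.65, edgeR adjusted p = 0.00933). Of all mural cells 2.74% had a Ndufa4 UMI, against 18.3% of astrocytes, 18.6% of endothelial cells and 7.89% of microglia. The pooled mural level was 0.235-fold that of astrocytes (exact interval 0.107 to 0.451) and 0.625-fold that of microglia (0.283 to 1.21). With library totals alone it did not pass.

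**Figure D4:**
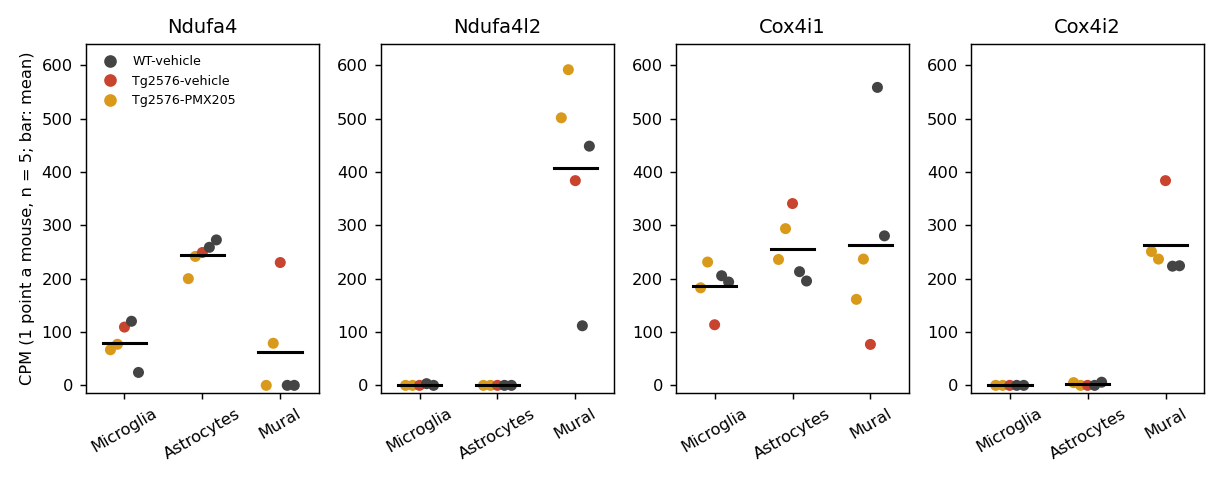
CPM (y axis) of Ndufa4, Ndufa4l2, Cox4i1 and Cox4i2 in microglia, astrocytes and mural cells (x axis) of the 5 mice with mural cells, 1 point a mouse, bars at the mean. Ndufa4l2 and Cox4i2 lie near 0 outside mural cells, and Ndufa4 is at 0 in mural cells of 3 of 5 mice.

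Other members that passed were higher in mural cells by smaller amounts, among them Ndufb2, Ndufs4, Atp5h, Ndufs7, Ndufb10 and Atp5b, with log2 fold changes of 0.66 to 1.65. Ndufb2, an accessory complex I subunit, was at 223 and 56.1 CPM in the WT-vehicle mice, 230.3 CPM in Tg2576-vehicle replicate 3 and 287 and 276 CPM in the Tg2576-PMX205 mice, resting on 1 to 16 UMIs each. Atp5h, in the stalk of ATP synthase, was at 269 to 592 CPM, above its levels in astrocytes (166 to 262 CPM) in 5 of 5 mice. Atp5b was at 894 to 1460 CPM in mural cells against 891 to 1132 CPM in astrocytes. These calls rested on few mice. Of 18 alternatives Atp5h stayed past the threshold in 6, Atp5b in 8, Ndufb10 in 9, Ndufs4 in 11 and Ndufb2 in 13. The complex I subunit Ndufs7 ranged from 112 to 1065 CPM between mice, and Ndufs4, another, was at 0 in both WT-vehicle mice, 76.8 CPM in Tg2576-vehicle replicate 3, and 322 and 671 CPM in the Tg2576-PMX205 mice. Without the Tg2576-PMX205 mice with paired barcodes the log2 fold change of Ndufs4 was -2.47. Atp5h shares 3' sequence with other genes (36.2% unique). Mitochondrially encoded subunits were lower for 8 of 9 tested. Mural cells held microglial markers at 1626 to 5139 CPM and astrocyte markers at 1791 to 3139 CPM, their own at 55117 to 64129 CPM, and 8951 to 55820 UMIs a mouse. These marker sums are bounded by the gate too, and what part the other markers had was not tested.

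Endothelial cells of 3 mice (WT-vehicle replicate 1, Tg2576-vehicle replicate 1, Tg2576-PMX205 replicate 2) lay near microglia. Their summed level was 9029 to 12196 CPM, 1.06-fold to 1.34-fold that of microglia (higher in 3 of 3 mice) and 0.52-fold to 0.72-fold that of astrocytes (0 of 3 higher). Against the mean of both types 9 of 62 members tested were lower and 0 higher by edgeR, where 17.3% of 4085 genes were lower and 11.1% higher, but with library totals alone 1 member was higher and 0 were lower. That scaling moved the median of all genes from -0.40 to 0.04 and all calls from 452 higher and 706 lower to 641 higher and 449 lower. DESeq2 gave 0 higher and 7 lower. The largest differences were in Ndufs7 (log2 fold change -2.28, SE 0.75), a core complex I subunit with 4 UMIs in endothelial cells at 0 to 68.1 CPM, and in Ndufb10 (log2 fold change -2.15, SE 0.68), at 0 to 90.7 CPM. Without WT-vehicle replicate 1, Tg2576-vehicle replicate 1 or Tg2576-PMX205 replicate 2 in turn, 1, 3 and 4 members passed. Cox7a2l was at 406 to 499 CPM, overlapping its range in microglia of these mice (471 to 628 CPM) and above that in astrocytes (97.5 to 228 CPM). Microglial markers summed to 1597 to 2639 CPM in endothelial cells and astrocyte markers to 113 to 609 CPM, against 28457 to 31192 CPM of their own. The gate bounds these sums as well, and the part of the other markers was not tested. The 29 perivascular macrophages held 8172 CPM of member transcripts in all, with no replicate check.

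Among the rarer isoforms, the muscle form Cox6a2 had 15 UMIs in 7 microglia and 0 in other types, at least 2.73-fold higher than in astrocytes; Itgad, which overlaps it on the other strand, had 2 UMIs in microglia and 0 in the other types. Cox8b had 7 UMIs in 4 astrocytes and 0 in microglia. Cox6b2, known from testis, had 37 UMIs in astrocytes and 14 in microglia (4.85-fold in CPM, exact interval 2.56 to 9.71). UMIs of these rarer isoforms are pooled over all mice, so the interval and the floor cover counting error only and not the spread between mice. Cox7a1, another muscle form, had 5 UMIs in mural cells (33.5 CPM), 12 in astrocytes (8.69 CPM) and 1 in microglia.

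Between microglia with disease-associated (DAM) genes and other microglia 1 member passed the test, and the summed level was modestly higher in most mice. DAM cells were taken as the 234 microglia with UMIs of at least 2 of 7 DAM markers. The 6 mice with at least 10 were all Tg2576 (vehicle replicates 1, 3 and 4, PMX205 replicates 1, 2 and 3). The summed member level of DAM cells was 6996 to 11387 CPM, against 7415 to 9080 CPM in the other microglia. It was 0.90-fold to 1.38-fold and higher in 5 of 6 mice (mean log2 difference 0.19, SD 0.20, n = 6). By complex, the summed level of complex V was higher in 6 of 6 mice (median 1.19-fold), of complex IV in 5 (1.31-fold), of complexes I and III in 4 each (1.05-fold in both) and of complex II in 3 (0.79-fold). The median log2 fold change was 0.26 for the members tested and -0.06 for all genes tested. Of 34 members tested 1 was higher and 0 lower, near the 3.83% of 1907 genes that were higher and the 2.46% that were lower. That member, the complex I subunit Ndufb7, was at 103 to 243 CPM in DAM cells and 19.4 to 118 CPM in the others, higher in 6 of 6 mice (log2 fold change 1.58, SE 0.42, edgeR adjusted p = 0.0107), and it did not pass with DESeq2, without the mouse block or without Tg2576-vehicle replicate 3. Glycolysis genes rose for 6 of 9 tested and mitochondrially encoded subunits fell for 3 of 8.

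Genotype and treatment were compared over mice within each type, to ask whether amyloid pathology or C5aR1 antagonism moves these genes. In microglia of WT-vehicle mice the summed level was 9097, 8312, 8110, 8090 and 7346 CPM, in WT-PMX205 mice 7115 and 8139 CPM, in Tg2576-vehicle mice 9242, 8218, 7744 and 7586 CPM, and in Tg2576-PMX205 mice 9194, 8225, 9082 and 7537 CPM. All 4 groups overlapped. The mean log2 difference was 0.00020 (SD 0.12) for Tg2576-vehicle against WT-vehicle, 0.05 (SD 0.13) for Tg2576-PMX205 against Tg2576-vehicle and -0.10 (SD 0.12) for WT-PMX205 against WT-vehicle, the last resting on 2 treated mice. Leaving out the mice labelled C5ar1 knockout or C5a overexpression left 1 vehicle mouse of each genotype, so the part of these alleles cannot be told apart from that mouse; the PMX205 values were then -0.10 in Tg2576 and -0.26 in WT. Leaving out 1 mouse gave -0.059 to 0.039 for genotype.

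In astrocytes the summed level was 16929, 18114, 16865 and 17334 CPM in WT-vehicle mice, 21152 and 16718 CPM in WT-PMX205 mice, 14027, 16512 and 18123 CPM in Tg2576-vehicle mice, and 15029, 17468 and 18026 CPM in Tg2576-PMX205 mice. The groups again overlapped. The mean log2 difference was -0.10 (SD 0.12) for genotype, 0.06 (SD 0.17) for PMX205 in Tg2576 and 0.12 (SD 0.13) for PMX205 in WT, the last resting on 2 treated mice. None of these signs held under every setting. Genotype gave 0.051 in cortex and 0.049 in hippocampus alone. PMX205 in Tg2576 gave -0.12 in cortex and -0.043 to 0.14 with 1 mouse left out. PMX205 in WT gave -0.050 without WT-PMX205 replicate 1 and 0.29 without replicate 2.

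No member passed the test for genotype, for PMX205 in either genotype or for the difference between the PMX205 effects, in microglia (57 members tested) or in astrocytes (68 tested), with edgeR or with DESeq2. Of 4668 genes tested in microglia 0.15% were higher in Tg2576-vehicle than in WT-vehicle, and 0% passed in the other 3 microglial comparisons and in the 4 astrocyte comparisons of 3645 genes. At an unadjusted p under 0.05 the members numbered 1 for genotype, 0 for PMX205 in Tg2576, 4 for PMX205 in WT and 4 for the interaction in microglia, and 2, 3, 7 and 6 in astrocytes. Over all genes tested these numbers were 130, 134, 335 and 226 of 4668 in microglia and 163, 151, 264 and 238 of 3645 in astrocytes. Missing the threshold does not show that the groups were alike. The 2 most abundant members of each complex, 10 in all, were those with the highest mean CPM over microglia and astrocytes. Among them log2 fold changes for genotype ran from -0.68 (Cox6b1, SE 0.29) to 0.59 (Ndufb10, SE 0.46) in microglia and from -0.44 (Sdhc, SE 0.39) to 0.36 (Uqcrfs1, SE 0.33) in astrocytes. For PMX205 in Tg2576 they ran from -0.39 (Uqcrh, SE 0.35) to 0.38 (Cox6b1, SE 0.31) in microglia and from -0.63 (Cox7a2l, SE 0.50) to 0.44 (Sdhc, SE 0.41) in astrocytes. In microglia Cox6b1 did not overlap between WT-vehicle (259 to 415 CPM) and Tg2576-vehicle (157 to 221 CPM; log2 fold change -0.68, SE 0.29, edgeR adjusted p = 0.999). Astrocytic Sdhb, the iron-sulfur subunit of complex II, did not overlap between WT-vehicle (300.3 to 320 CPM) and Tg2576-vehicle (134 to 210.1 CPM, log2 fold change -0.85, SE 0.38, edgeR adjusted p = 0.979). Both genes were chosen here after their values were seen. With so few mice a group, ranges of some genes also separate by chance, and the share of all genes without overlap is not given here. No genotype difference is read from these 2 genes.

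Regions were compared in mice with at least 20 cells of the type in both. In microglia of 8 mice 31 members were tested and none passed with edgeR or DESeq2 (1 at an unadjusted p under 0.05, against 134 of all 1755 genes; 0.057% of 1755 genes were higher and 0.228% lower in hippocampus), and the summed level was higher in hippocampus in 5 of 8 mice. In astrocytes of 7 mice the summed level was 0.996-fold to 1.13-fold that of cortex and higher in 6 of 7 mice (mean log2 difference 0.12, SD 0.07, n = 7). The typical member did not shift, with a median log2 fold change by edgeR of 0.004 for the members tested and -0.013 for all genes tested. The summed level of complex IV was higher in 7 of 7 mice, by 1.02-fold to 1.46-fold, of complexes I, III and V in 5 of 7 each and of complex II in 4 of 7. None of 42 members tested passed with edgeR (5 at an unadjusted p under 0.05, against 133 of all 982 genes), where 1.43% of 982 genes were higher and 1.43% lower, and 1 passed with DESeq2. That gene was Cox6b1, at 515 to 640 CPM in cortex (median 543) and 622 to 1306 CPM in hippocampus (median 813), overlapping between mice but higher in 7 of 7 (log2 fold change 0.63, SE 0.20, edgeR adjusted p = 0.065). Cox5a went the other way, with medians of 327 and 151 CPM and lower levels in hippocampus in 6 of 7 mice (log2 fold change -0.93, SE 0.36, edgeR adjusted p = 0.155).

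**Figure D5:**
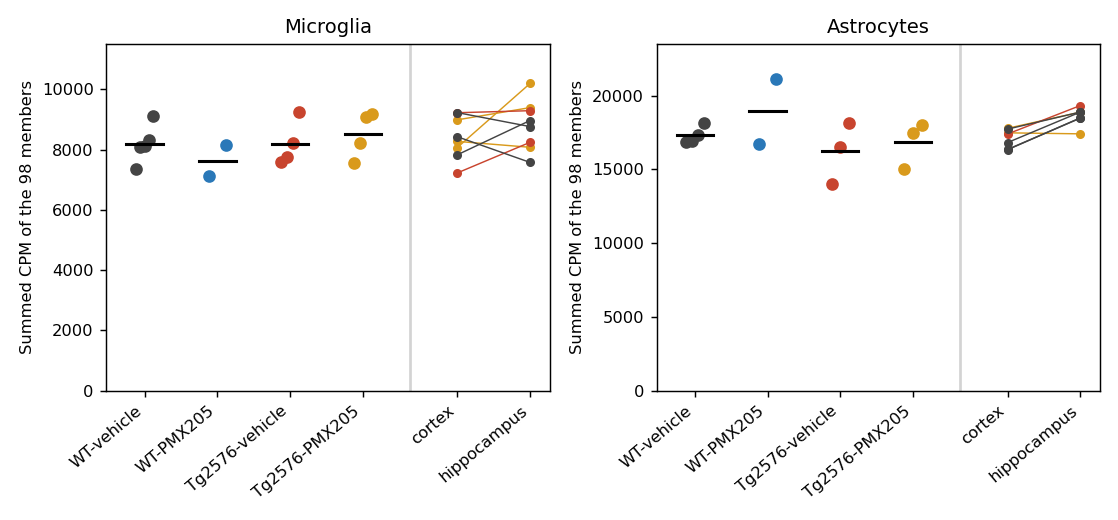
Summed CPM of the 98 members (y axis) by mouse in microglia (left) and astrocytes (right), for the 4 groups with bars at the mean and, right of the grey line, for cortex and hippocampus joined by mouse (x axis). The groups overlap in both types, and the astrocyte level was higher in hippocampus in 6 of 7 mice.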

How the data were processed

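SureCell 3' libraries run on the ddSEQ system were counted by the authors with kallisto bustools (kb_python) on mm10 and deposited as raw UMI counts per gene and barcode; per the labels, bcl2fastq 2.18.0.12 and Seurat were also used. The stated kb count command sets no multimapping option, so the tool's default applied to reads shared by several genes, which leaves them uncounted. Of 94 members with 31-base words in the last 500 bases of their transcripts, 30 had under 90% of them unique and 5 under 50%. From the deposited counts, barcodes with at least 500 UMIs, 300 genes and at most 5% mitochondrial UMIs were kept, and the top 6% of Scrublet scores (scanpy 1.11.5) per library were removed, except in 1 library with 17 cells. A cell was typed by at least 3 UMIs of 2 genes of a marker list that made up 80% of its marker UMIs. UMIs were summed per mouse and type (at least 20 cells, or 10 for rarer types and DAM) and tested with edgeR 4.0.16 (R 4.3.3) quasi-likelihood fits (TMM, filterByExpr, Benjamini-Hochberg at 0.05), with mouse as block between types and regions, since both came from the same animal. DESeq2 1.42.0 was an alternative. The fits were also run on simulated counts with large planted changes and no effect of mouse, which does not bear on small differences. P-values between groups rest on the spread between mice, and those with mouse as block on the spread of the differences within mice. An SD of a summed log2 difference is that of the paired differences between types or regions, and the pooled SD within the 2 groups otherwise. Named genes were up to 5 members past the threshold in each direction with the largest change, the 2 most abundant of each complex, and the isoform families; Ndufa9, Sdhd, the less changed mural members, Sdhb in astrocytes and Cox5a between regions were named after their values were seen. The members and all lists were chosen with earlier results of these data known. Abundance, taken as the mean CPM over microglia and astrocytes, ranked members for the naming rule alone. Levels of different genes were otherwise not compared. After seeing the data, fits without the 4 mice with paired barcodes or with that batch as a term, and a looser ependymal gate, were added. Other alternatives were other filters and gates, single regions, leaving out mice, and mice with conflicting or added strain labels. The values of 1 member are not reported here.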

Additional observations from a re-analysis of the deposited data

Results flagged for a closer look

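Among 78 groups of 4 to 10 mice examined for a mouse far from the rest, 4 were found; chance alone flags about 1 in 20 groups. In mural cells the summed complex III level was 921 CPM in Tg2576-vehicle replicate 3, against 1559 to 1788 CPM in the other 4 mice. In DAM microglia the summed complex I level was 3974 CPM in Tg2576-PMX205 replicate 1, against 2522 to 2990 CPM in the other 5 mice, and the summed complex V level was 1984 CPM in Tg2576-vehicle replicate 4, against 2513 to 2747 CPM. In microglia of WT-vehicle mice the summed complex I level was 1895 CPM in replicate 5, against 2503 to 2599 CPM in the other 4 mice. The reason was not tested.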

How the results depend on the processing

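Between astrocytes and microglia the count of members passing was 46 to 54 with each mouse left out, 17 in hippocampus alone, where 22 were tested, and within 1.5 times the count of 49 under the other alternatives. In endothelial cells it was 9, and 1 to 4 without 1 mouse, 1 with library totals alone, 0 in hippocampus alone and 4 without the mice with paired barcodes. In mural cells it was 10, and 5 with doublets kept, 3 with at least 1000 UMIs a cell, 6 without the mice with conflicting labels and also without those with added alleles, 4 to 9 without 1 mouse, 16 with library totals alone, 4 with no filter on low counts (2 higher, 2 lower), 6 in cortex alone and 4 without the mice with paired barcodes (1 higher, 3 lower). Ndufs4 reversed there, to -0.33 in cortex alone and -2.47 without the mice with paired barcodes. Ndufa4 stayed past the threshold in 14 of 18 alternatives, Ndufb2 in 13, Ndufs4 in 11, Ndufb10 in 9, Atp5b in 8 and Atp5h in 6. Ndufa4l2 did in 18 of 18 and Cox4i2 in 16 of 16. Both passed the filter on low counts only through mural cells, so these 2 counts are a description and no measure of robustness. Between astrocytes and microglia Sdha did not pass in 3 of 27, Cox4i1 in 3 of 26 and Sdhc in 1 of 26 alternatives. In DAM microglia the count of 1 was 0 to 1 without 1 mouse and 0 under DESeq2, without the replicate block, with at least 1000 UMIs, stricter purity or more cells, without the low-count filter, in either region alone, and without the mice with conflicting labels, added alleles or paired barcodes. Fits without the replicate block, which pairs types of 1 mouse, gave 50 members in astrocytes, 11 in endothelial and 10 in mural cells, and 0 in both region comparisons, and 0 in DAM microglia; among these the DAM count alone moved by over 1.5 times. The planned ependymal comparison was not run, since 3 cells passed the gate. Between regions in astrocytes 1 member passed with doublets kept and 1 with DESeq2. The cause of these changes was not tested, beyond fewer mice or genes where these were left out.

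The summed log2 differences between groups moved by more than their SD in 14 cases. Without mice with added alleles, which left 1 vehicle mouse of each genotype, they were -0.10 for PMX205 in Tg2576 and -0.26 in WT in microglia, and -0.27 for genotype and 0.34 for PMX205 in Tg2576 in astrocytes. For genotype in astrocytes they were 0.066 with stricter purity, 0.067 with at least 50 cells, 0.051 in cortex and 0.049 in hippocampus. For PMX205 in Tg2576 astrocytes they were -0.12 with stricter purity and -0.12 in cortex. For PMX205 in WT astrocytes they were 0.35 with at least 1000 UMIs, -0.059 in cortex, and -0.050 to 0.29 without 1 mouse (-0.050 without WT-PMX205 replicate 1, 0.29 without replicate 2). Depth limits the rarer types most: 3 UMIs over all mural cells correspond to 20.1 CPM and over all endothelial cells to 24.8 CPM.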

Other observations

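Ependymal cells were rare under the marker gate (3 cells). With at least 4 ependymal markers and no purity limit, an alternative chosen after seeing the data, 84 cells were found, 81 of them without a type otherwise. Their pooled summed member level was 15672 CPM, and 13787 to 16508 CPM in the 3 mice with at least 10 such cells. They also held astrocyte markers at 7099 CPM and microglial markers at 3919 CPM, against 11049 CPM of ependymal markers.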
